A study of Mus musculus with 28 samples.

Results

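The mitochondrial respiratory chain was followed as 85 genes, nearly all encoding subunits or assembly factors of complexes I to V, of 24197 genes in the authors' deposited table. They were taken by name (Ndufa, Ndufb, Ndufc, Ndufs and Ndufv, Sdha to Sdhd, Uqcr, Cox4 to Cox8 and Atp5, without pseudogenes), and had to reach 1 FPKM (fragments per kilobase of gene, scaled to library size) in at least 1 of the 8 groups of mice. The names matched 92 genes. Of the 85 members 84 stood at or above 1 FPKM in every group, and Ndufaf5 alone passed through some groups only. Ndufaf5 was also just inside the limit, with 1.30 FPKM in its highest group, and Cox7a1, at 0.664 FPKM in its highest group, was just outside.

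Nuclear, polyadenylated RNA was sequenced from the livers of mice of the strain Crl:CD1(ICR), giving 28 libraries. TCPOBOP, an agonist of the nuclear receptor CAR, was given by injection at a first dose of 3 mg/kg in corn oil with DMSO, and vehicle mice received no TCPOBOP. The 2-week groups followed the low corn oil regimen (4 µl injected per g body weight, with 10% DMSO), were 9 to 10 weeks old at death, and comprised 4 TCPOBOP and 3 vehicle libraries of each sex. Males given high corn oil (20 µl for each g, with 2% DMSO at the first dose) for 8 weeks, with TCPOBOP reduced to 1 mg/kg after the first dose, gave 3 TCPOBOP and 3 vehicle libraries at an age of 15 to 16 weeks. The longer low corn oil study comprised 4 TCPOBOP libraries of males treated for 8 weeks, with 1.5 mg/kg after the first dose, and 4 vehicle libraries of males treated for 4 to 8 weeks. Its TCPOBOP mice were 15 to 16 weeks old, as were 2 of the vehicle mice, while the other 2 were 11 to 12 weeks old. The libraries of that longer low corn oil study carry a set code of their own in the labels, and 1 of the 4 TCPOBOP libraries of 2-week females carries another code than the other libraries of its comparison. The table holds 1 pooled value per group, with the authors' fold change and adjusted p per comparison and no value of a single library, so no spread between mice can be given and the depth is unknown. Below, a call means an adjusted p under 0.05 in that table.

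The respiratory chain moves electrons from NADH and succinate to oxygen through complexes I to IV in the inner mitochondrial membrane, and complex V, the ATP synthase, uses the proton gradient so formed to make ATP. Hepatocytes are rich in mitochondria and rely on this chain for gluconeogenesis, urea synthesis and the oxidation of fatty acids. The genes described here lie in the nuclear genome, and the subunits that the mitochondrial genome encodes were not analysed here. The CAR target Cyp2b10 served as a check of treatment. Its level was 2.41 to 335 FPKM from vehicle to TCPOBOP in 2-week males, 7.25 to 499 FPKM in 2-week females, 1.72 to 389 FPKM in high and 2.29 to 238 FPKM in low corn oil males at 8 weeks. In bulk RNA of this kind, fewer cells of a type and less RNA per cell cannot be told apart.

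Promoters of the members with the most calls are shown, because nuclear respiratory factor 1 (NRF1), ETS factors such as GABPA and oestrogen-related receptors (ERR) are known regulators of respiratory chain genes. Of the 9 members called in at least 2 of the 4 treatment comparisons, 7 could be matched to RefSeq promoter sequences (build GRCm38.p6, which is not the mm9 build of the counts). The last 150 bases before the listed start are printed 5′ to 3′, with capitals for matches to the strings GCATGCG (NRF1 core), CCGGAAG (ETS) and AAGGTCA (ERR), searched on both strands. The NRF1 core overlaps its own reverse complement, so that 1 palindromic stretch matches on both strands.
Ndufa8 (chr2:36049339-36049488, minus strand): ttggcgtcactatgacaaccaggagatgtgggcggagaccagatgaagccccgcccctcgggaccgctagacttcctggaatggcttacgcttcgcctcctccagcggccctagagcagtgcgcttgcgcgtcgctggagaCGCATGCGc
Atp5k (chr5:108434400-108434549, minus strand): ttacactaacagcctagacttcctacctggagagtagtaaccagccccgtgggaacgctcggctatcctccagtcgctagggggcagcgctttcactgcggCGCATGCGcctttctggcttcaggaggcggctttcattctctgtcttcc
Uqcr11 (chr10:80406822-80406971, minus strand): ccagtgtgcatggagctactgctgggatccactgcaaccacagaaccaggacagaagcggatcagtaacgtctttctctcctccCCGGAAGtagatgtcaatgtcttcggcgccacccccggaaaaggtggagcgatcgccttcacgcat
Ndufa4 (chr6:11907451-11907600, minus strand): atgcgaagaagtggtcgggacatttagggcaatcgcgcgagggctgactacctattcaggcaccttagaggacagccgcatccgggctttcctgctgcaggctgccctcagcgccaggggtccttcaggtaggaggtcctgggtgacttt
Ndufc2 (chr7:97399853-97400002, plus strand): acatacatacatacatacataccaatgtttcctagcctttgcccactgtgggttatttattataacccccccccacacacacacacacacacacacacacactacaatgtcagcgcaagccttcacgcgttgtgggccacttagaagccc
Ndufs4 (chr13:114388095-114388244, minus strand): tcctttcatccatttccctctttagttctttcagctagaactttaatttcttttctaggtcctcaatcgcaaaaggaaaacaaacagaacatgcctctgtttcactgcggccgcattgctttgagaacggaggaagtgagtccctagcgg
Cox7a2l (chr17:83514334-83514483, minus strand): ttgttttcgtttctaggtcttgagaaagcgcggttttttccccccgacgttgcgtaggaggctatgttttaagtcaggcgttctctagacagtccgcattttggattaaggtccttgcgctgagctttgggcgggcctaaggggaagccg

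Ndufa8 and Atp5k each hold the palindromic NRF1 stretch, and Uqcr11 holds an ETS string that begins 66 bases before the listed start. None of these strings lay in the 250 bases before the start of Ndufa4, Ndufc2, Ndufs4 or Cox7a2l, which says only that these letters are not in that window. Across the 72 members with a sequence, 10 (13.9%) held the NRF1 core within 250 bases, 13 (18.1%) the ETS string and 5 (6.94%) the ERR string. Among the 8715 matched genes of at least 1 FPKM the shares were 6.31%, 15.9% and 3.81%. Among all 27025 genes with a RefSeq promoter they were 3.43%, 7.83% and 4.70%. These matches describe the windows and were not tested as binding sites.

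Respiratory chain genes were called higher under TCPOBOP most often in males of the high corn oil regimen, where 31 of 85 members passed and none was called lower. In that comparison 7.32% of all 11325 genes of at least 1 FPKM were called higher and 3.43% lower. In 2-week males 9 members were called higher and 1 lower, beside 4.34% and 2.92% of all genes. In 2-week females 1 member was called higher and none lower, beside 6.38% and 5.27% of all genes. In low corn oil males at 8 weeks 6 members were called higher and none lower, beside 5.81% and 5.17% of all genes. As shares of the 85 members, the higher calls came to 36.5% in high corn oil males, 10.6% in 2-week males, 1.18% in 2-week females and 7.06% in low corn oil males at 8 weeks. The share in low corn oil males at 8 weeks was near the background, and that in 2-week females below it.

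Most fold changes lay above 1, although in each comparison most members did not pass the test. The median log2 fold change of the 85 members in the authors' deposited table was 0.39 in 2-week males, 0.33 in 2-week females, 0.66 in high corn oil males and 0.30 in low corn oil males at 8 weeks. Over all 11325 genes the medians were -0.01, 0.01, -0.05 and -0.01. Members with a log2 fold change above 0, called or not, numbered 82, 80, 82 and 75 in these comparisons. In all 4 comparisons 69 members (81.2%) lay above 0, against 2924 (25.8%) of all genes. Whether the responses differ between sexes, durations or regimens was not tested.

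**Figure D1:**
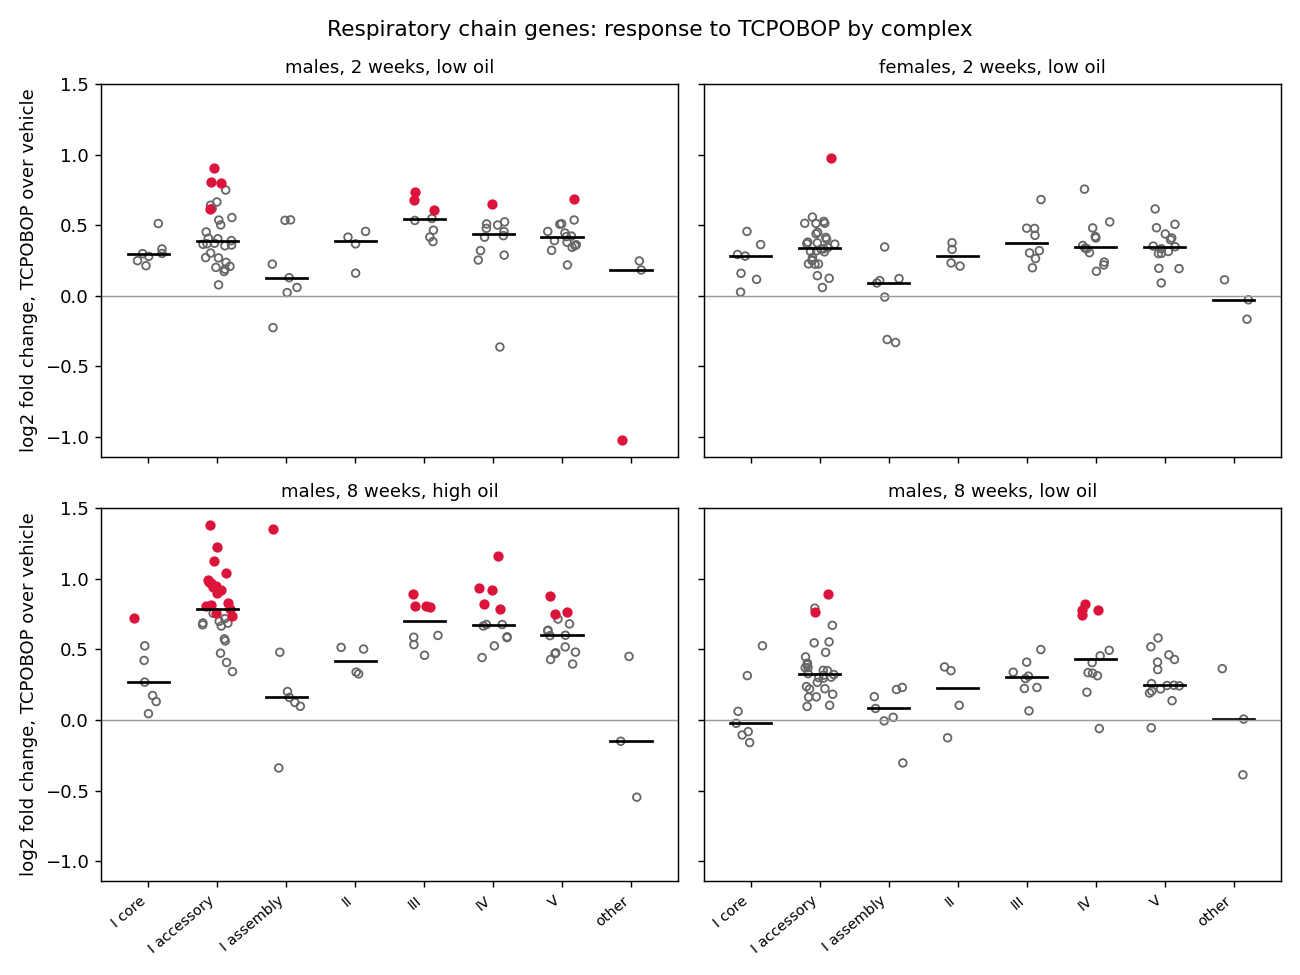
Log2 fold change (TCPOBOP over vehicle) of each of the 85 members in the 4 treatment comparisons, grouped by complex on the x axis. Filled points passed an adjusted p under 0.05, open points did not, and bars are medians. Called points are most numerous in high corn oil males (31 higher), and Atp5sl in 2-week males is the only called fall. The last group, other, holds Atp5s, Atp5sl and Ndufa4l2.

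Complex I, the NADH dehydrogenase that feeds electrons into the chain, held most of the members called in at least 1 treatment comparison. It is also the largest complex here. It has 7 core subunits, 29 accessory subunits and 7 assembly factors, beside 4, 8, 12 and 15 members of complexes II, III, IV and V. Its larger number of called members therefore does not show that complex I genes were called more often than those of other complexes. Nor did it hold most calls in each comparison. Of the 6 calls in low corn oil males complex IV had 4 and complex I accessory subunits 2. Of the 9 higher calls in 2-week males complex I accessory subunits had 4 and complex III 3. Ndufa8, an accessory subunit on the intermembrane side, was the only member called in all 4 treatment comparisons. Its level went from 13.6 to 26.6 FPKM in 2-week males, from 14.5 to 28.7 FPKM in 2-week females, from 13.1 to 32.6 FPKM in high corn oil males and from 9.75 to 17.8 FPKM in low corn oil males at 8 weeks. Every TCPOBOP group was above every vehicle group. The fold changes in the authors' deposited table were 1.87, 1.96, 2.61 and 1.70, with adjusted p of 0.000365, 0.00195, 7.48e-06 and 0.013. It had the largest log2 fold change of any member in the 2-week males, the 2-week females and the high corn oil males.

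Among the 29 accessory subunits of complex I, 17 were called higher in high corn oil males, 4 in 2-week males, 1 in 2-week females and 2 in low corn oil males, and none lower. All 29 had a log2 fold change above 0 in each of these comparisons, with medians of 0.79, 0.39, 0.34 and 0.33. Ndufs4, a small subunit of the peripheral arm whose loss causes mitochondrial disease, rose from 5.50 to 10.02 FPKM in 2-week males and from 4.77 to 9.43 FPKM in high corn oil males (adjusted p = 0.00339 and 0.0014 in the authors' deposited table). Vehicle and TCPOBOP values of Ndufs4 were 6.75 and 8.84 FPKM in females and 2.94 and 5.005 FPKM in low corn oil males, uncalled in both (adjusted p = 0.559 and 0.137). Its TCPOBOP value was the higher in all 4 settings.

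Ndufc2, a membrane arm subunit, was called in both 8-week comparisons, going from 13.9 to 29.5 FPKM under high and from 9.28 to 18.4 FPKM under low corn oil (adjusted p = 0.00022 and 0.00732 in the authors' deposited table). At 2 weeks its vehicle and TCPOBOP values were 19.4 and 24.5 FPKM in males and 16.3 and 23.6 FPKM in females, without a call. Ndufa1, an X-linked membrane arm subunit, rose from 14.3 to 32.1 FPKM in high corn oil males (adjusted p = 0.000123 in the authors' deposited table). Ndufa5 rose from 7.40 to 13.6 FPKM in 2-week males (adjusted p = 0.00711 in the authors' deposited table). It had a log2 fold change of 0.79 in low corn oil males at 8 weeks that was not called (adjusted p = 0.0948). Ndufab1, the mitochondrial acyl carrier protein that doubles as a complex I subunit, rose in 2-week males from 12.1 to 19.5 FPKM (adjusted p = 0.0381 in the authors' deposited table).

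Further accessory subunits called in high corn oil males were Ndufa2, Ndufa6, Ndufa13 and Ndufb9, whose log2 fold changes lay between 0.95 and 0.99 by the authors' deposited table. Ndufa3, Ndufa10, Ndufa11, Ndufb5, Ndufb6, Ndufb7, Ndufb8 and Ndufs6 were also called there, with values between 0.73 and 0.94. Ndufs5 had a log2 fold change of 0.92 in high corn oil males (adjusted p = 0.0179) and of 0.75 in 2-week males without a call (adjusted p = 0.0962). Ndufb7 was among the 5 largest changes of 2-week females at 0.56, also uncalled (adjusted p = 0.0853). Ndufa6, the most abundant accessory subunit by mean level, went from 32.7 to 61.5 FPKM in high corn oil males.

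The 7 core subunits, which carry the flavin and the iron-sulphur clusters of complex I, gave 1 call in the treatment comparisons. Ndufv2 rose from 7.43 to 11.8 FPKM in high corn oil males (adjusted p = 0.034 in the authors' deposited table). The median log2 fold changes of the core subunits were 0.30, 0.28, 0.27 and -0.02 in 2-week males, 2-week females, high corn oil males and low corn oil males. Ndufv1, which binds NADH, had vehicle and TCPOBOP values of 27.97 and 27.7 FPKM under high and 23.5 and 22.6 FPKM under low corn oil. Ndufs3, the most abundant core subunit by mean level, had 33.9 and 42.2 FPKM in 2-week males and 24.7 and 27.6 FPKM in low corn oil males. Ndufs7 had a log2 fold change of -0.11 in low corn oil males, uncalled. Whether core and accessory subunits differ was not tested.

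Assembly factors of complex I (Ndufaf1 to Ndufaf7), which help to build the complex but are not part of it, were low, between 0.526 and 5.57 FPKM over all groups. Ndufaf5 was the only one of the 7 called in a treatment comparison, rising from 0.526 to 1.30 FPKM in high corn oil males (adjusted p = 0.00503 in the authors' deposited table). It reached 1 FPKM only in the TCPOBOP males at 2 weeks and of high corn oil. Ndufaf4, the most abundant of them by mean level, had log2 fold changes of -0.23, -0.31, -0.34 and 0.02, none of them called. Ndufaf2 had 3.56 and 2.86 FPKM in vehicle and TCPOBOP females, and Ndufaf3 4.12 and 3.60 FPKM in low corn oil males, uncalled. Ndufaf6 changed by 0.06 and 0.10 on the log2 scale in 2-week and high corn oil males, also uncalled.

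Complex II, succinate dehydrogenase, links the tricarboxylic acid cycle to the chain, and none of its 4 subunits was called in any comparison. Sdha, the flavoprotein, had vehicle and TCPOBOP values of 35.8 and 49.9 FPKM in 2-week males, 35.8 and 42.6 FPKM in 2-week females, 20.8 and 28.5 FPKM in high and 21.6 and 30.00 FPKM in low corn oil males. Sdhb, the iron-sulphur subunit, lay between 34.9 and 62.2 FPKM over the 8 groups. The membrane anchors Sdhc and Sdhd lay between 13.2 and 29.9 FPKM and between 20.8 and 40.96 FPKM. Log2 fold changes of the 4 subunits in the treatment comparisons lay between -0.13 and 0.51, and only that of Sdhb in low corn oil males was below 0.

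Complex III passes electrons from ubiquinol to cytochrome c. Of its 8 members 3 were called higher in 2-week males and 4 in high corn oil males, and none in 2-week females or low corn oil males. These are the genes with Uqcr names, and the complex III subunit Cyc1 was counted among the electron carriers below. Uqcrq, a small subunit without a redox centre and the most abundant of the 8, rose from 55.8 to 96.9 FPKM in 2-week males and from 59.1 to 105 FPKM in high corn oil males (adjusted p = 0.0344 and 0.00625 in the authors' deposited table). Its values in vehicle and TCPOBOP were 72.7 and 102 FPKM in females and 41.1 and 55.6 FPKM in low corn oil males, uncalled.

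Uqcr11 and Uqcrb, both small subunits, were called in the same pair of comparisons. Uqcr11 went from 32.3 to 54.1 FPKM in 2-week males and from 32.98 to 55.1 FPKM in high corn oil males (adjusted p = 0.0362 and 0.0199 by the authors' deposited table). Uqcrb went from 23.97 to 38.4 FPKM and from 20.2 to 34.1 FPKM (adjusted p = 0.0476 and 0.0157). Uqcr10 was called in high corn oil males, from 32.3 to 54.2 FPKM (adjusted p = 0.0236 by the authors' deposited table), and had a log2 fold change of 0.68 in females without a call (adjusted p = 0.062). The large core proteins Uqcrc1 and Uqcrc2 and the Rieske iron-sulphur protein Uqcrfs1 had log2 fold changes between 0.06 and 0.60, with no call.

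Complex IV, cytochrome c oxidase, reduces oxygen to water. Counting Ndufa4, which was first assigned to complex I and is now placed here, 12 members reached 1 FPKM: 1 was called higher in 2-week males, none in females, 5 in high corn oil males and 4 in low corn oil males. Ndufa4 rose from 64.4 to 139 FPKM under high and from 40.6 to 76.5 FPKM under low corn oil (adjusted p = 3.3e-05 and 0.0169 in the authors' deposited table). At 2 weeks its vehicle and TCPOBOP values were 90.6 and 127 FPKM in males and 75.5 and 107 FPKM in females, uncalled. Cox7a2l, which takes part in joining complexes III and IV into supercomplexes, rose from 17.5 to 31.9 FPKM under high and from 11.99 to 22.1 FPKM under low corn oil (adjusted p = 0.00248 and 0.0193 in the authors' deposited table). At 2 weeks it had 22.3 and 33.1 FPKM in males and 23.2 and 27.3 FPKM in females, uncalled.

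Cox4i1, the most abundant member of complex IV, rose from 93.2 to 155 FPKM in high corn oil males (adjusted p = 0.018 in the authors' deposited table). Cox6a1 rose there from 53.1 to 97.8 FPKM and Cox6c from 35.4 to 60.4 FPKM (adjusted p = 0.00239 and 0.00789). In females Cox6a1 had 55.5 and 94.6 FPKM in vehicle and TCPOBOP, just outside the threshold (adjusted p = 0.0503). Cox7b and Cox7c were called in low corn oil males alone, going from 12.00 to 21.6 FPKM and from 21.7 to 39.8 FPKM (adjusted p = 0.0438 and 0.0331 in the authors' deposited table). In 2-week males Cox7b had 25.3 and 20.7 FPKM in vehicle and TCPOBOP, the one complex IV member with a log2 fold change below 0 there, uncalled (adjusted p = 0.539). Cox6b1 was the complex IV call of 2-week males, from 38.2 to 62.8 FPKM (adjusted p = 0.0368 in the authors' deposited table).

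The complex IV isoforms known from heart, skeletal muscle, lung or testis lay under 1 FPKM in all groups and are not members. Cox7b2 and Cox8c were listed at 0 throughout, and Cox4i2, Cox6a2, Cox6b2, Cox7a1 and Cox8b did not exceed 0.664 FPKM.

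Complex V had 15 members, of which 1 was called higher in 2-week males, 3 in high corn oil males and none in the other treatment comparisons. Atp5k, subunit e of the membrane part, rose from 27.6 to 46.4 FPKM in 2-week males and from 29.1 to 47.4 FPKM in high corn oil males (adjusted p = 0.0294 and 0.0445 in the authors' deposited table). Its values were 31.6 and 43.3 FPKM in vehicle and TCPOBOP females and 19.7 and 31.6 FPKM in low corn oil males, uncalled. Atp5f1, a stalk subunit, rose from 17.4 to 30.8 FPKM in high corn oil males, and Atp5g2, one of the genes for the proton-carrying ring, from 28.3 to 45.8 FPKM (adjusted p = 0.00584 and 0.0296 in the authors' deposited table).

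Atp5b, the catalytic subunit and the most abundant of complex V, had vehicle and TCPOBOP values of 110.1 and 155 FPKM in 2-week males, 119 and 153 FPKM in females, 73.4 and 98.5 FPKM under high and 72.4 and 88.5 FPKM under low corn oil. TCPOBOP was the higher in each pair, and none was called (adjusted p = 0.428, 0.509, 0.293 and 0.941 in the authors' deposited table). Atp5e had a log2 fold change of 0.61 in females without a call (adjusted p = 0.058).

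Atp5s, Atp5sl and Ndufa4l2 belong to none of these subunit lists. Atp5sl, which carries an ATP synthase name but is known in mammals as an assembly factor of the complex I membrane arm, fell from 12.9 to 6.72 FPKM in 2-week males (adjusted p = 0.0474 in the authors' deposited table). Its vehicle and TCPOBOP values were 10.6 and 11.5 FPKM in females, 14.7 and 9.65 FPKM under high and 12.6 and 10.3 FPKM under low corn oil, uncalled. Ndufa4l2, a hypoxia-inducible relative of Ndufa4, lay between 1.16 and 2.20 FPKM and was not called. Atp5s had 2.87 and 2.58 FPKM in vehicle and TCPOBOP females, uncalled.

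**Figure D2:**
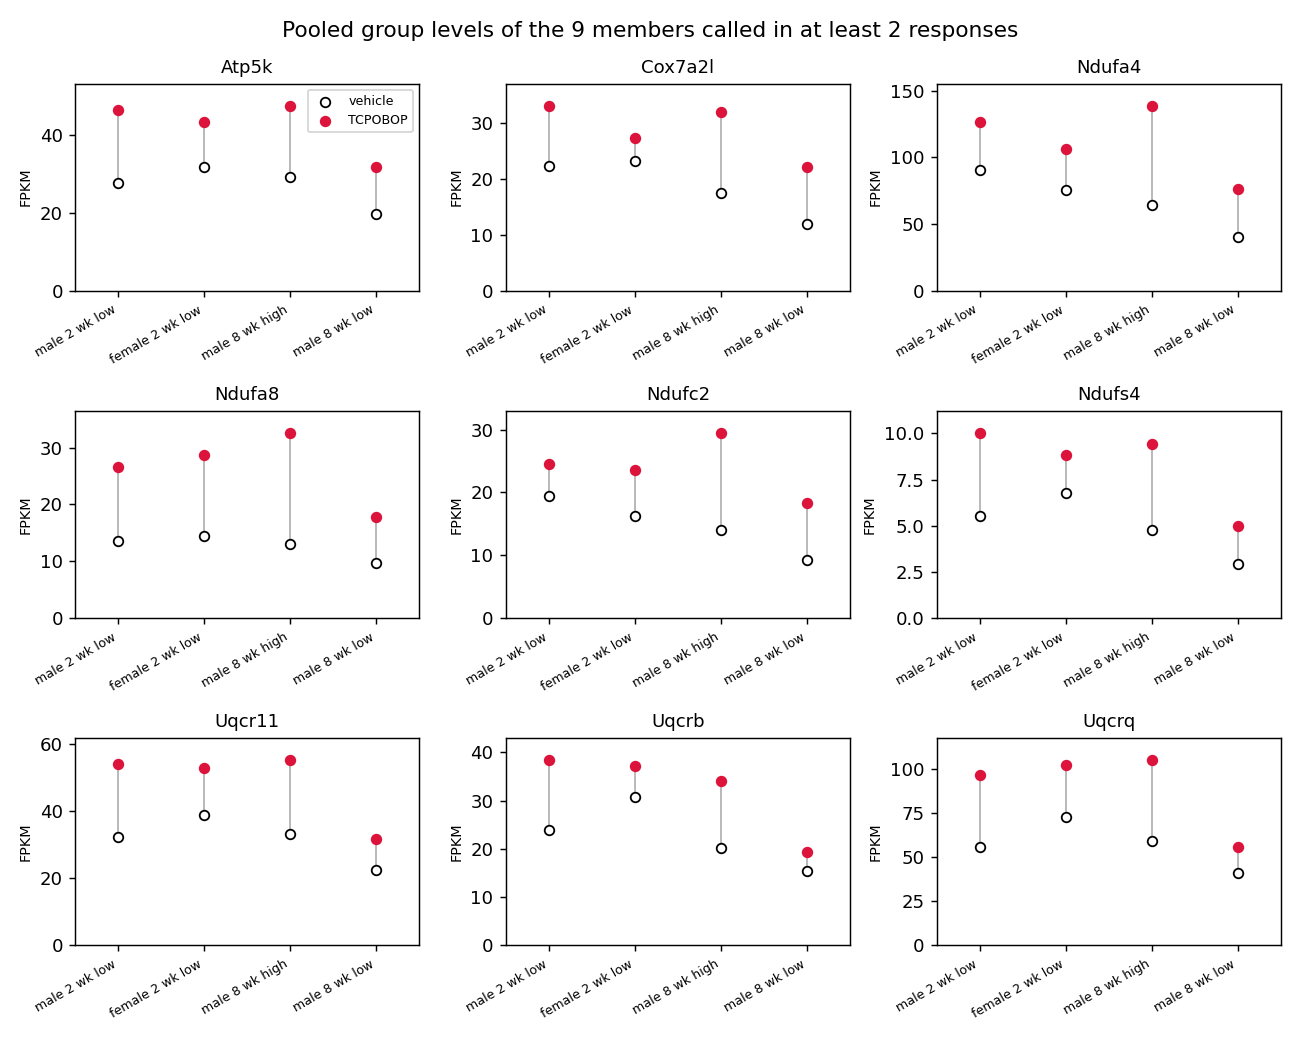
Pooled FPKM of the 9 members called in at least 2 of the 4 treatment comparisons, 1 panel per gene with a linear axis from 0. Open points are vehicle and filled points TCPOBOP groups of the 4 settings, and the vehicle males of the last setting were treated for 4 to 8 weeks. TCPOBOP lies above vehicle in every setting for each of these genes. They were chosen by their calls, all of them higher, in these same comparisons, so that choice sets this direction in part.

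Of the 85 members 48 were called in none of the 4 treatment comparisons, 28 in 1, 8 in 2 and 1 in all 4. The same tally was not made over all genes, so these counts have no background beside them. Spearman's rho between the log2 fold changes of 2 comparisons across the 85 members ran from 0.25 (2-week females and low corn oil males) to 0.62 (high and low corn oil males at 8 weeks), and from 0.56 to 0.70 across all 11325 genes. This describes an order across genes, which are not independent replicates.

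Levels also differed between groups of the same treatment. The median member had 25.1 FPKM in vehicle and 34.2 FPKM in TCPOBOP males at 2 weeks, and 25.4 and 33.05 FPKM in 2-week females. It had 19.5 and 30.8 FPKM in high corn oil males, and 15.4 and 21.6 FPKM in low corn oil males of the longer study. The vehicle group of that longer low corn oil study had the lowest value of all 8 groups for 73 of the 85 members, and the TCPOBOP males at 2 weeks had the highest for 39. Its median log2 FPKM ratio to the 2-week vehicle males of the same regimen was -0.61 over the members, with 2 members above 0, and 0.05 over all genes. Over the 91 cytosolic ribosomal protein genes counted below, this median was -0.52, with 6 genes above 0. Vehicle females over vehicle males at 2 weeks gave medians of 0.07 over the members and 0.13 over all genes. The authors' deposited table holds no comparison between vehicle groups, and these ratios were not tested.

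**Figure D3:**
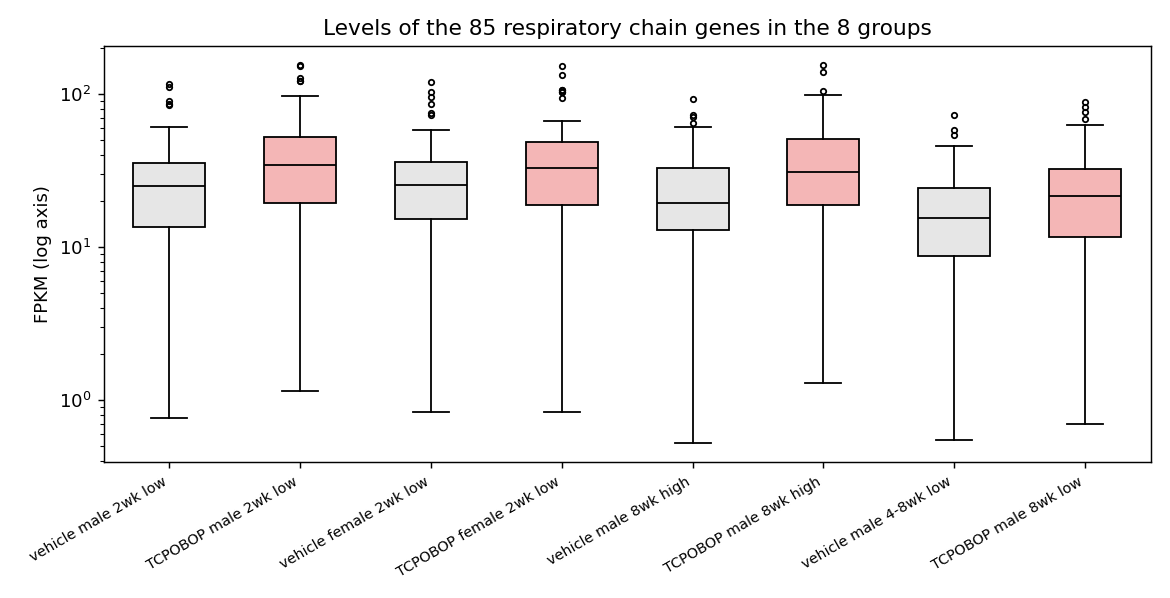
FPKM of the 85 members in each of the 8 groups on a log axis. Boxes span the quartiles over genes with the median as a line, whiskers reach the last value within 1.5 times the box height, and points lie beyond. Medians are lowest in the low corn oil vehicle males of 4 to 8 weeks (15.4 FPKM) and highest in TCPOBOP males at 2 weeks (34.2 FPKM).

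The authors also compared TCPOBOP males of the high with those of the low corn oil regimen at 8 weeks. Of the 85 members 44 were called higher under high corn oil and none lower, beside 7.27% and 6.3% of all genes. The members' median log2 fold change was 0.68, against 0.02 over all genes. The calls comprised 22 accessory and 2 core subunits of complex I, 1 assembly factor, 5 members of complex III, 8 of complex IV and 6 of complex V, and none of complex II. Ndufa1 had 12.3 and 32.1 FPKM under low and high corn oil and was 2.87 times higher (adjusted p = 2.6e-06 in the authors' deposited table). Ndufa2 had 11.4 and 28.2 FPKM and was 2.70 times higher (adjusted p = 2.37e-06 in the authors' deposited table). Uqcrq was 2.08, Cox4i1 2.07 and Ndufa13 2.15 times higher by the authors' deposited table. This comparison uses the TCPOBOP libraries of both 8-week treatment comparisons, and corn oil volume, DMSO content, later dose and library set cannot be told apart in it.

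The vehicle groups, which hold other mice, are set beside it. The median log2 FPKM ratio of high over low corn oil was 0.42 over the members in vehicle males, with 77 of 85 above 0, and 0.54 in TCPOBOP males, with 81 above 0. Over all genes these medians were 0.03 and -0.13. The vehicle ratio was not tested, and library set, DMSO content, duration and age differ between these vehicle groups too. FPKM ratios lack the authors' scaling between groups: the deposited log2 fold change minus the log2 FPKM ratio had a median over genes of 0.15 in the comparison of regimens, -0.11 in the low corn oil comparison at 8 weeks, and -0.07, -0.01 and 0.05 in 2-week males, 2-week females and high corn oil males.

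Markers of several cell types also differed between the TCPOBOP males of the regimens. All 5 endothelial markers had log2 fold changes below 0, between -1.07 and -0.38, and Pecam1 and Kdr were called lower (adjusted p = 0.000263 and 3.9e-05 in the authors' deposited table). Of 4 erythroid markers 3 were called higher, Hbb-b1 by 1.06 on the log2 scale, and Hbb-bs, whose values nearly repeat those of Hbb-b1, may share its reads. Of 5 hepatocyte markers Apoa1 was called higher, by 1.14 on the log2 scale, with a list median of 0.38 and 3 of 5 above 0. Of 5 stellate cell markers Col1a1 was called lower, at -1.02, and 4 of 5 lay below 0. No Kupffer cell, cholangiocyte, lymphocyte or neutrophil marker of at least 1 FPKM was called. The part of these differences in the members' values was not tested.

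**Figure D4:**
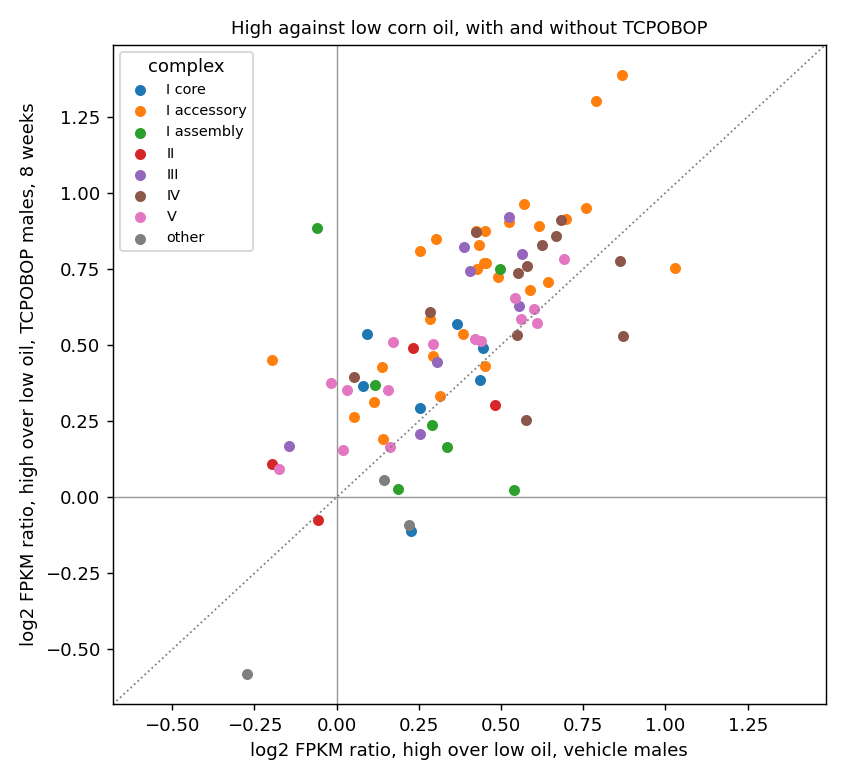
Log2 FPKM ratio of high over low corn oil for each of the 85 members, in vehicle males (x axis) and in TCPOBOP males (y axis), coloured by complex. The dotted line marks equal ratios. Most points lie above 0 on both axes (77 in vehicle and 81 in TCPOBOP males).

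Ribosomal protein genes, which like the members are widely and highly expressed, were counted beside them. Of 91 cytosolic ribosomal protein genes 5 were called higher in 2-week males, none in 2-week females, 63 in high corn oil males, 4 in low corn oil males and 47 in the comparison of regimens. Their median log2 fold changes were 0.39, 0.21, 0.82, 0.49 and 0.69, and their median log2 FPKM ratio of high over low corn oil in vehicle males was 0.42. The part in the members' changes of whatever these genes share with them was not tested. Of 76 mitochondrial ribosomal protein genes, whose products translate the mitochondrially encoded subunits, 2, 1, 3 and 0 were called higher in the 4 treatment comparisons in the same order, and 19 in the comparison of regimens. As shares these were 2.63%, 1.32%, 3.95%, 0% and 25%. Those of the cytosolic ribosomal protein genes were 5.5%, 0%, 69.2%, 4.4% and 51.6%. Of all genes 4.34%, 6.38%, 7.32%, 5.81% and 7.27% were called higher. The mitochondrial ribosomal share was thus below that of all genes in each treatment comparison.

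Electron carriers and assembly factors are set beside the 4.34%, 6.38%, 7.32% and 5.81% of all genes called higher in 2-week males, 2-week females, high and low corn oil males. Of 15 electron carriers 6.67%, 0%, 0% and 0% were called higher, and of 23 assembly factors of complexes II to V 4.35%, 0%, 8.7% and 0%. For high over low corn oil, 3 of 15 (20%) and 3 of 23 (13%) were called higher, beside 7.27% of all genes. Of the 15 electron carrier genes Etfb, which passes on electrons from fatty acid oxidation, rose from 50.03 to 82.2 FPKM in 2-week males (adjusted p = 0.0428 in the authors' deposited table). Dhodh, a pyrimidine synthesis enzyme that hands electrons to ubiquinone, fell from 4.09 to 2.76 FPKM in low corn oil males (adjusted p = 0.0142 in the authors' deposited table), and no other gene of that list was called under treatment. Of the 23 assembly factor genes, Cox17, a copper chaperone for complex IV, rose in 2-week males from 7.62 to 14.2 FPKM (adjusted p = 0.0313 in the authors' deposited table). Uqcc2 and Cox16, which serve complexes III and IV, rose in high corn oil males from 4.53 to 8.73 FPKM and from 2.74 to 4.92 FPKM (adjusted p = 0.0333 and 0.0171).

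None of the 17 genes of mitochondrial biogenesis and transcription was called in any comparison, and their median log2 fold changes were -0.18, -0.15, -0.17 and -0.19 in the treatment comparisons. Ppargc1a, the coactivator known to drive mitochondrial biogenesis, had 0.686 and 0.380 FPKM in vehicle and TCPOBOP males at 2 weeks and 1.11 and 0.670 FPKM in females, uncalled (adjusted p = 0.0559 and 0.0514 in the authors' deposited table). At 8 weeks it had 0.425 and 0.358 FPKM under high and 0.438 and 0.555 FPKM under low corn oil, with log2 fold changes of -0.18 and 0.22 (adjusted p = 1 and 1).

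In the tricarboxylic acid cycle, which supplies NADH and succinate to the chain, 1 of 14 genes was called higher in 2-week males, 2 in females, 3 in high corn oil males and none in low corn oil males, where 1 was called lower. As shares the higher calls came to 7.14%, 14.3%, 21.4% and 0%, beside 4.34%, 6.38%, 7.32% and 5.81% of all genes, and 1 gene alone makes 7.14% of this list. Mdh2, mitochondrial malate dehydrogenase, rose from 22.9 to 39.4 FPKM in 2-week males, from 22.7 to 43.5 FPKM in females and from 17.9 to 33.8 FPKM in high corn oil males (adjusted p = 0.0148, 0.000929 and 0.00821 in the authors' deposited table). Idh2, the NADP-dependent isocitrate dehydrogenase of mitochondria, rose from 20.8 to 38.8 FPKM in females and from 9.49 to 20.4 FPKM in high corn oil males (adjusted p = 0.0166 and 0.00028 in the authors' deposited table). Suclg1, a subunit of succinyl-CoA ligase, rose in high corn oil males from 13.3 to 24.5 FPKM (adjusted p = 0.00562). Idh3g, a subunit of the NAD-dependent isocitrate dehydrogenase, fell from 38.5 to 26.6 FPKM in low corn oil males (adjusted p = 0.0252 in the authors' deposited table).

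Among 9 genes of uncoupling proteins, nucleotide exchangers and membrane channels, 3 were called in at least 1 treatment comparison. In 2-week males, 2-week females, high and low corn oil males 0%, 22.2%, 11.1% and 11.1% were called higher. The shares of all genes were 4.34%, 6.38%, 7.32% and 5.81%, and 1 gene alone makes 11.1% of this list. Slc25a5, an exchanger of ADP and ATP, rose from 51.9 to 85.2 FPKM in females and from 33.9 to 55.4 FPKM in high corn oil males (adjusted p = 0.0316 and 0.0347 in the authors' deposited table). Ucp2 rose from 7.14 to 11.3 FPKM in females, and Vdac3, a channel of the outer membrane, from 9.94 to 16.3 FPKM in low corn oil males (adjusted p = 0.0162 and 0.048).

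**Figure D5:**
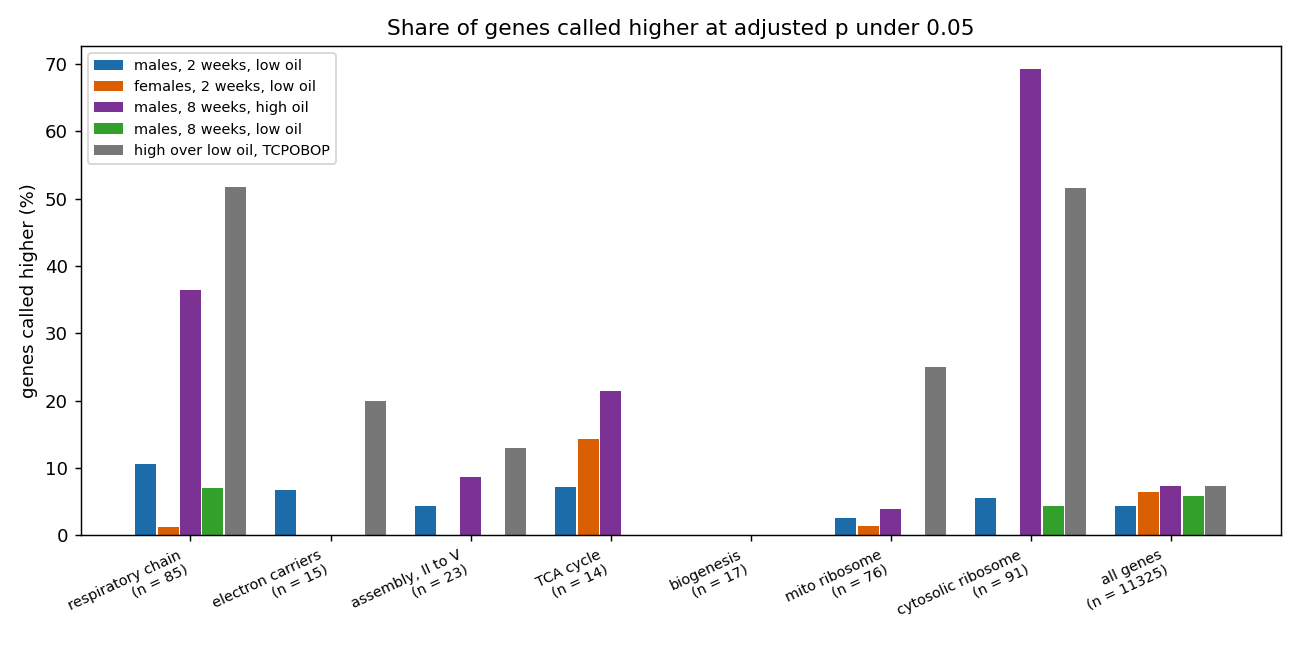
Percent of genes called higher (adjusted p under 0.05) in each gene list for the 4 treatment comparisons and for high over low corn oil among TCPOBOP males, with bars from 0. Respiratory chain genes reach 36.5% in high corn oil males and 51.8% in the comparison of regimens, cytosolic ribosomal protein genes 69.2% and 51.6%, and all genes 7.32% and 7.27%.

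Hepatocyte markers dominated, and those of other cells were present at lower levels. From vehicle to TCPOBOP in 2-week males, 2-week females, high corn oil males and low corn oil males, the 5 hepatocyte markers summed from 12911 to 9735, from 14840.1 to 12913, from 8191 to 11394 and from 4782 to 7671 FPKM. Single hepatocyte markers did not all follow these sums: 1, 3, 4 and 4 of 5 had a log2 fold change above 0. The list medians were -0.24, 0.14, 0.15 and 0.07. Among these markers 1 was called lower in 2-week males, and 1 higher in high and in low corn oil males. In the same order, markers of Kupffer cells went from 46.6 to 65.1, from 81.5 to 97.2, from 57.98 to 66.3 and from 60.5 to 74.4 FPKM, those of cholangiocytes from 10.2 to 13.3, from 14.03 to 14.8, from 9.003 to 24.1 and from 7.69 to 23.1 FPKM, and those of lymphocytes and neutrophils from 3.25 to 22.6, from 6.05 to 47.5, from 6.37 to 28.1 and from 6.31 to 12.8 FPKM. These 3 sums were higher under TCPOBOP in all 4 settings, as was the members' median, but single markers did not all follow. S100a8, a neutrophil gene, was called higher in each setting. Within the cholangiocyte list, Krt19 and Spp1, the 2 genes of at least 1 FPKM, went opposite ways in 2-week males (log2 fold changes -1.30 and 0.52) and in 2-week females (-0.63 and 0.09). Both lay above 0 at 8 weeks, from 0.10 to 1.73 in high and from 0.62 to 1.58 in low corn oil males. Of these 2 genes 1 was called higher in low corn oil males. S100a8 was the only call of its list in each comparison, and 2 of the 4 genes of at least 1 FPKM in that list lay below 0 in low corn oil males. Stellate cell markers went from 64.9 to 62.97, from 80.6 to 85.01, from 47.02 to 55.3 and from 61.6 to 63.1 FPKM. Of these 5 markers 1, 2, 3 and 1 had a log2 fold change above 0 in the same order, with list medians of -0.08, -0.01, 0.00 and -0.24. Col1a1 was called higher in all 4, and Lrat was called lower in low corn oil males. Sums of endothelial markers went from 100 to 106, from 138 to 149.6, from 91.7 to 82.9 and from 131 to 132 FPKM, of erythroid markers from 71.4 to 136, from 116 to 89.1, from 72.5 to 98.5 and from 60.8 to 64.4 FPKM, and of the nuclear RNAs Malat1, Neat1 and Meg3 from 304 to 496, from 335 to 246, from 620.5 to 609 and from 589 to 705 FPKM, with no shared direction. Of the 3 nuclear RNAs 1 was called higher in 2-week males, and 1 lower in 2-week females, high and low corn oil males. Of 4 erythroid markers 2 were called higher in 2-week males and 1 in 2-week females. Of 5 endothelial markers 1 was called higher, in 2-week females. No marker was at 0 in all groups, and the part of any of them in the members' changes was not tested.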

How the data were processed

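Polyadenylated nuclear RNA of liver was made into stranded libraries, per the labels. TopHat2 2.0.13, featureCounts 1.4.6-p5, edgeR (no version) and the build mm9 are named in the submitters' processing notes, and counting over RefSeq gene bodies is named per the file headers. The authors deposited FPKM as 1 pooled value per group. How libraries were combined and how multiply mapped reads were handled is unknown here, so reads shared with pseudogenes, paralogs or overlapping genes are an uncertainty of every member. The deposited fold change is a signed score: a rise is the ratio itself, and a fall is minus its inverse. The deposited p-values tie and pile up at 1 as adjusted values do, and are called adjusted p. The labels do not say that each library is a separate animal, so these p measure the spread between libraries. Of the value columns 2 repeat other columns and were not used.

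Log2 fold changes, calls at adjusted p under 0.05, counts and medians were computed with Python 3.11.15, pandas 2.3.3 and numpy 2.4.6, and these steps were tested on simulated data. The planned edgeR fit of single libraries was not made, as no such counts were used, and no standard error, interval or depth could be given. Members and lists were chosen with earlier results of these data known. Named genes are called members, the 5 highest and 5 lowest changes of each treatment comparison, the most abundant member of each complex, complex II, tissue-restricted complex IV isoforms, called genes of related lists and Cyp2b10; Ppargc1a, Uqcrc1, Uqcrc2, Uqcrfs1 and the markers named singly were chosen after their values were seen. Not every member called for high over low corn oil is named. Symbols Sdhaf3 and Sdhaf4 matched no row, and Twnk, Adgre1 and Atp5if1 were found as Peo1, Emr1 and Atpif1. RefSeq promoters matched 72 of 85 members.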

Additional observations from a re-analysis of the deposited data

How the results depend on the processing

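No paired analysis was possible because the columns carry no single library; for the same reason, leaving out replicates and DESeq2 were not run. At adjusted p under 0.01 the members called were 3 instead of 10 in 2-week males, 16 instead of 31 in high corn oil males, 1 instead of 6 in low corn oil males and 26 instead of 44 for high over low corn oil, while females kept a count of 1. From FPKM ratios with a pseudocount of 1, the members' median log2 change was 0.56 instead of 0.66 in high corn oil males and 0.51 instead of 0.68 for high over low corn oil (0.53 with a pseudocount of 0.1); such ratios lack the authors' scaling between groups. Counts stayed within 1.5 times with a 1.5-fold minimum, no FPKM minimum or a minimum of 5 FPKM. The same held without the complex I assembly factors, Atp5s and Atp5sl, a set that kept Ndufa4l2. No median changed sign under the alternatives run. Of 1275 recomputed single-gene values 217 moved by 0.1 or more on the log2 scale, and none of a called gene changed sign. What depth limits cannot be said from pooled values.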
